A study of Mus musculus with 12 samples.

Results

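The Indian hedgehog and PTHrP axis was followed through 9 genes: Ihh, Ptch1, Smo, Gli1, Gli2, Gli3, Hhip, Pthlh and Pthr1. Members were chosen by name, and every probe that the array annotation assigned to one of them was kept, whatever its signal. This gave 18 probes of the 41174 on the array, and 9 of 27962 gene names. RNA came from hypertrophic zones cut by hand under a microscope from the tibial growth plates of mice aged 14 days, was amplified in 2 linear rounds, and was hybridised to single-colour arrays. The 4 groups held 3 mice each, with 1 tibia and 1 array per mouse.

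Schmid mice were homozygous for the knock-in mutation Col10a1 p.Asn617Lys, which makes the chain of type X collagen misfold. Cog mice (ColXTgcog) carried a transgene of misfolding thyroglobulin under the Col10a1 promoter, so that a foreign protein accumulates in the endoplasmic reticulum (ER) of hypertrophic chondrocytes while their own collagen X is normal. Hemizygous and homozygous Cog mice were not distinguished. Each mutant was compared with wildtype littermates of its own background, called Wt_Schmid and Wt_Cog. The comparisons ask whether ER stress in the hypertrophic zone, from either source, goes with a change in this signalling loop.

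In the growth plate, Indian hedgehog is secreted by chondrocytes as they leave proliferation and enter hypertrophy. It binds the receptor Ptch1, which otherwise holds back Smo, and Smo then acts through the Gli transcription factors. Ihh also maintains PTHrP, the product of Pthlh, at the end of the bone. PTHrP signals through its receptor, which the array calls by the older name Pthr1 and current annotation Pth1r, to keep chondrocytes dividing and to delay hypertrophy.

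The probes on which the results turn are shown because the size of a change differed between probes of 1 gene, and because a pair of them joined separate pieces of the genome. All probes were 60 bases long. Sequences are given 5′ to 3′ in lower case, with the array's own positions on build mm7. Of the accessions of the 18 probes 11 were found in the RefSeq transcript table, all under the same gene, and that of the first Ihh probe, a cDNA clone, was not. Where each probe lies among exons was not analysed here.
Ihh probe A_52_P403398, minus strand, chr1:75187527-75187586, first 30 bases: gctaggggccagagtgtgtctagacatcag
Ihh probe A_51_P479444, minus strand, chr1:75185454-75185513, first 30 bases: gcgattcttcacacgcattccatctgtctt
Pthr1 probe A_51_P327874, minus strand, chr9:110420044-110420103: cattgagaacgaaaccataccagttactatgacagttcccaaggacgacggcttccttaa
Pthr1 probe A_51_P327869, minus strand, chr9:110420304-110421320, with 957 genomic bases skipped inside it: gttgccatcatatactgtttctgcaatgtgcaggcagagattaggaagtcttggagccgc
Smo probe A_52_P444864, plus strand, chr6:29687728-29688961, with 1174 genomic bases skipped inside it: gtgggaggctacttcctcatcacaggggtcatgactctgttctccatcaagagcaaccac

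Values are log2 intensities after quantile normalisation. A difference of 1 is a 2-fold change, and the member probes that were well above background on no array had means of 8.36 to 9.35. A call required both a change of at least 2-fold and a limma p, adjusted over all probes, no higher than 0.05, and a gene was read at the brightest of its probes. Between 39.6% and 61.8% of the spots of an array stood well above their background, a flag of the scanner software. Col10a1, the marker that defines the hypertrophic zone, was well above background on all 12 arrays, from 12.99 to 15.79. Tgn, the gene that the Cog transgene carries, read 17.79 to 17.95 on the Cog arrays and 9.55 to 10.22 on all others. Mutant and own wildtype never shared a slide, so slide and genotype cannot be told apart. The first wildtype arrays stood apart in Mmp13, a terminal hypertrophic gene, at 16.36 in Wt_Schmid 1 and 16.64 in Wt_Cog 1 against 12.97 to 14.12 on the other wildtype arrays. They were also the highest of their groups in Col10a1, at 15.79 and 14.67. Some results for Ihh and Pthr1 below are also given without 1 of them. The summed levels of the marker lists are not.

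In Schmid, 2 of the 9 genes fell, the ligand Ihh and the PTHrP receptor Pthr1, and 0 rose. In Cog only Ihh passed the test in these 9 genes, also downward, and 0 rose. Across all probes, limma called 4.69% lower and 5.78% higher in Schmid, and 0.748% lower and 1.56% higher in Cog. Of the 7 genes not called in Schmid, an unadjusted p under 0.05 was reached by Smo alone, downward. In Cog it was likewise reached by Smo, downward, and by no gene upward. Over all genes it was reached by 11305 of 27962 in Schmid and by 6318 in Cog. The median difference of the 9 genes was -0.3 in Schmid and -0.24 in Cog, against -0.09 and 0 over all genes at their brightest probe. In the Schmid comparison 4 of the 9 genes had all 3 mutant arrays below all 3 wildtype arrays, and in Cog 2 did. Over all probes that was so for 26.1% in Schmid and 13% in Cog.

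**Figure D1:**
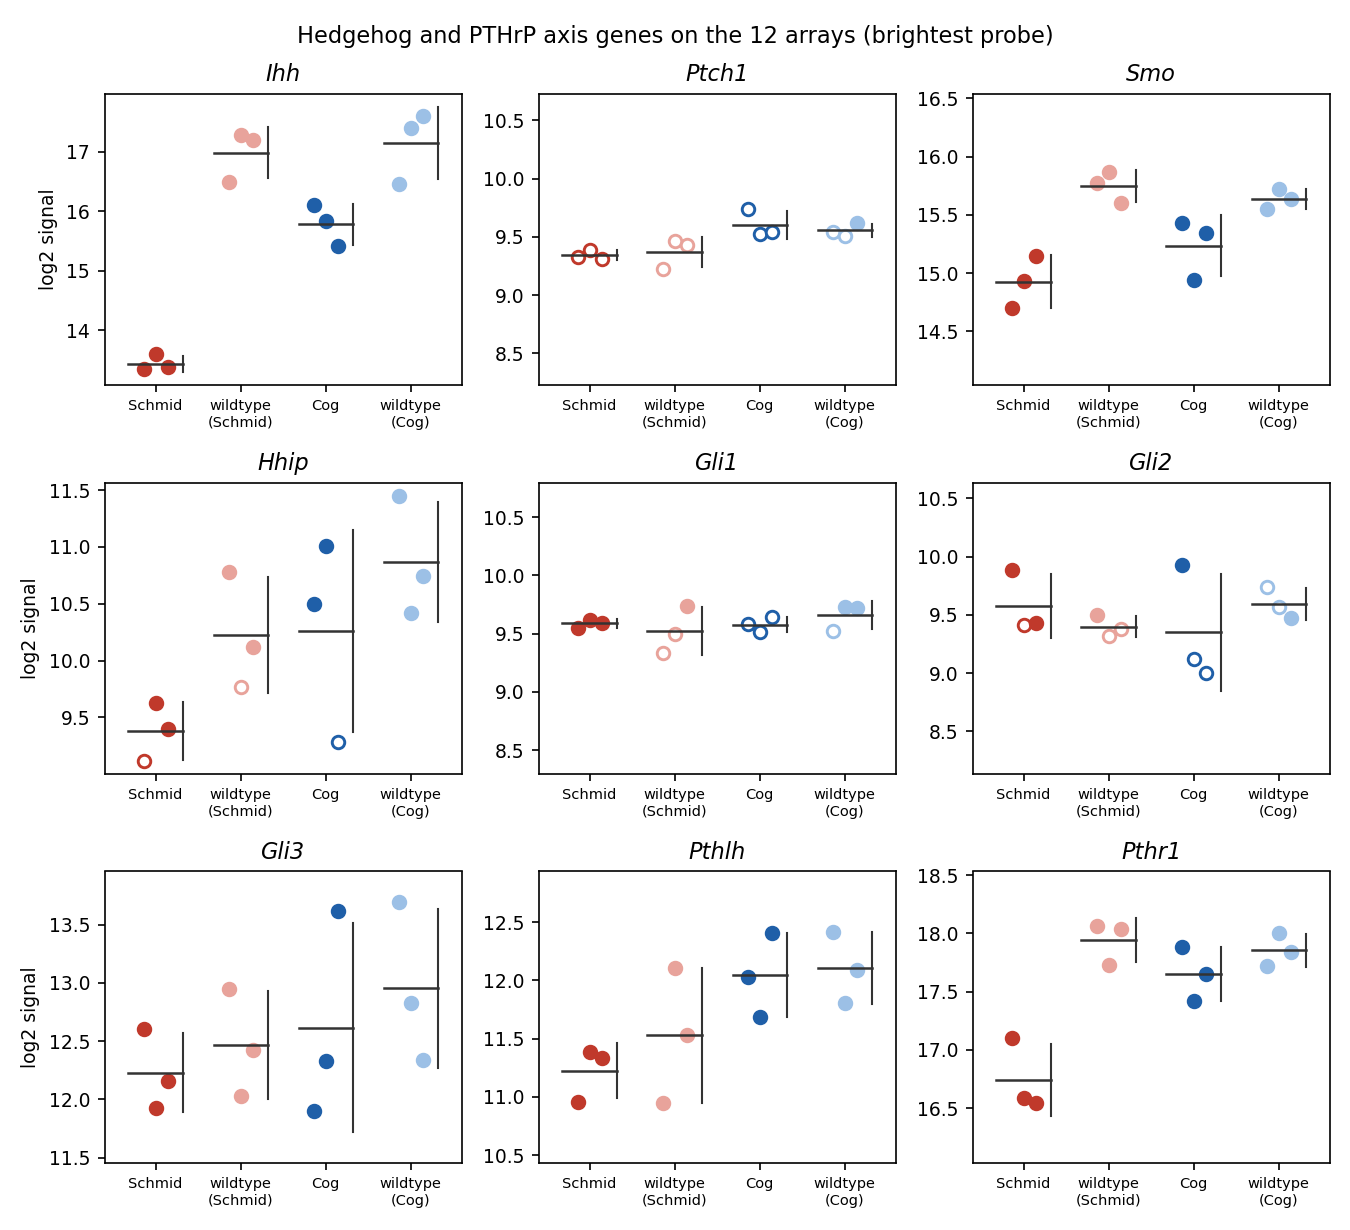
Normalised log2 intensity of the brightest probe of each of the 9 genes on each array, by group. Filled points were well above background on that array, horizontal bars are group means and vertical lines are ± 1 SD (n = 3). Panels have their own vertical scales. The Schmid points of Ihh lie between 13.34 and 13.59, below every other array, and those of Pthr1 lie between 16.54 and 17.10.

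Ihh, the ligand, showed the largest difference among the 9 genes in both mutants. At its brighter probe the Schmid arrays read 13.34, 13.59 and 13.38, and their wildtype arrays 16.49, 17.28 and 17.20. The Cog arrays read 16.10, 15.84 and 15.41, and their wildtype arrays 16.46, 17.40 and 17.60. The groups did not overlap in either comparison, and the gap was far wider in Schmid. Ihh was 11.7-fold lower in Schmid (log2 difference -3.55, SE 0.31, 95% interval -4.24 to -2.86, adjusted p = 0.00014 in limma). In Cog it was 2.58-fold lower (log2 difference -1.37, SE 0.31, interval -2.06 to -0.68, adjusted p = 0.036 in limma). By group mean the order was Schmid at 13.44, Cog at 15.78, Wt_Schmid at 16.99 and Wt_Cog at 17.15, and the 2 wildtype groups overlapped (difference -0.16, interval -0.86 to 0.53, adjusted p = 0.89).

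At the brighter probe the fall of Ihh was larger in Schmid than in Cog, which the second probe, given below, did not show. Between the mutants the difference of the 2 differences was -2.18 (SE 0.44, interval -3.16 to -1.2, adjusted p = 0.0093 in limma for this contrast). Of all probes 16.6% passed that test, and of the 9 genes 2 did, Ihh and Pthr1. In bulk tissue, fewer cells that make Ihh and less Ihh RNA in each cell cannot be told apart.

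The second Ihh probe moved in the same direction by less. Schmid arrays read 11.07, 10.94 and 10.88 against 12.53, 12.03 and 12.59 in Wt_Schmid, again without overlap. It was 2.67-fold lower in Schmid (log2 difference -1.42, interval -2.07 to -0.77, adjusted p = 0.0073). Cog arrays read 12.16, 12.03 and 11.36 against 12.26, 12.92 and 13.40 in Wt_Cog, which did not overlap either, and the difference of -1.01 missed the threshold (interval -1.66 to -0.36, adjusted p = 0.081). At this probe the effects of the mutations were not shown to differ (-0.41, interval -1.33 to 0.51, adjusted p = 0.53). Over the 12 arrays the 2 probes had a Pearson correlation of 0.922, a description of arrays that differ by group. The size of the Ihh change in Schmid therefore depended on the probe, from 2.67-fold to 11.7-fold, and its direction did not.

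The Ihh call in Cog was near its limit. It was lost when Cog 2 (adjusted p = 0.078), Cog 3 (0.11), Wt_Cog 2 (0.13) or Wt_Cog 3 (0.11) was left out, with differences of -1.4, -1.18, -1.25 and -1.15. It was also lost when any of the Schmid arrays, which only inform the spread, was left out (0.053 to 0.059). Without Wt_Cog 1, the array high in Mmp13, the difference was -1.72 (adjusted p = 0.011). In Schmid the call stood under each array left out, from -3.8 to -3.41, and at -3.44 (adjusted p = 0.0009) without Wt_Schmid 3, which leaves a comparison within 1 scan day. The Cog and Wt_Cog arrays were all scanned on the same day.

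The second Ihh probe was printed at 10 places on each array, so its change could be read at each place. Between Schmid and Wt_Schmid the difference was -1.53 to -1.26 over the 10 places, and between Cog and Wt_Cog -1.27 to -0.85. The brighter Ihh probe had 1 spot, in array row 104. Gli1, whose 10 spots lay near background, differed by place: its Schmid difference was -0.65, -0.75 and -0.65 in rows 78, 83 and 107, and between 0.12 and 0.68 in rows 257 to 510. The part of position in the size of the Ihh change was not tested on repeated spots of the brighter probe. With a smooth trend over rows removed, Ihh at its brighter probe was at -3.35 in Schmid and -1.51 in Cog (adjusted p = 0.00018 and 0.03).

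**Figure D2:**
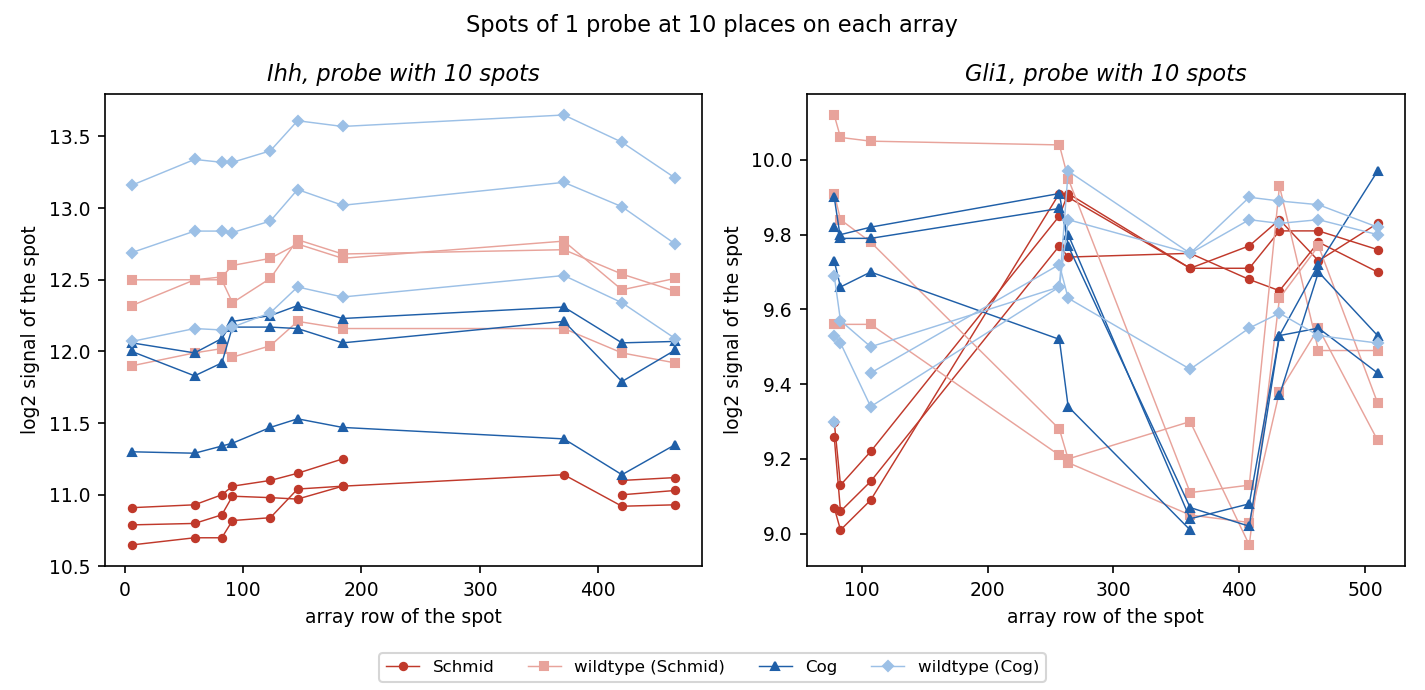
Log2 intensity of single spots against their row on the array for the Ihh probe with 10 spots (left) and the Gli1 probe with 10 spots (right), with 1 line per array, coloured by group (gaps are spots left out). Ihh spots of the Schmid arrays lie below those of Wt_Schmid in every row. Gli1 spots of the Schmid arrays lie on average below Wt_Schmid in rows 78 to 107 and above it in rows 257 to 510.

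Pthr1, the receptor of PTHrP, fell in Schmid at both of its probes, more firmly at the brighter one. At the brighter probe the Schmid arrays read 17.10, 16.59 and 16.54, and Wt_Schmid 18.06, 17.73 and 18.04, with no overlap. It was 2.29-fold lower in Schmid (log2 difference -1.2, SE 0.18, interval -1.6 to -0.8, adjusted p = 0.0016 in limma). In Cog the arrays read 17.88, 17.42 and 17.65 against 17.72, 18.00 and 17.84 in Wt_Cog, which overlapped. The Cog difference was -0.21 (interval -0.61 to 0.2, adjusted p = 0.56). By group mean the order was Schmid at 16.74, Cog at 17.65, Wt_Cog at 17.85 and Wt_Schmid at 17.94, and the last 3 overlapped.

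The effect on Pthr1 differed between the mutants by -0.99 (interval -1.56 to -0.42, adjusted p = 0.026). That call was not stable. It was lost with the mean over both probes in place of the brighter one (-1.03, adjusted p = 0.062), where Smo was called instead. It was also lost without Schmid 2 (adjusted p = 0.061), Schmid 3 (0.063), Wt_Schmid 3 (0.057), Cog 1 (0.057), Wt_Cog 1 (0.056) or Wt_Cog 3 (0.053), with differences between -0.98 and -0.87. The dimmer Pthr1 probe read 14.66, 13.79 and 13.63 in Schmid against 16.11, 14.76 and 15.20 in Wt_Schmid. It was 2.52-fold lower there (log2 difference -1.33, SE 0.35, adjusted p = 0.021), and at -0.27 in Cog (adjusted p = 0.71). Its Schmid call was lost without Schmid 2 (-1.21, adjusted p = 0.07), without Schmid 3 (-1.13, adjusted p = 0.076) and, for want of a 2-fold change, without Wt_Schmid 1 (-0.95). In all it was lost in 8 of 25 alternatives, among them the scanner's processed signal under both scalings (-1.03 and -1.05, adjusted p = 0.074 in both) and removal of row and GC trends (-1.01, adjusted p = 0.079).

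Pthlh, which encodes PTHrP itself, was well above background on 12 and 11 of 12 arrays at its 2 probes and passed the test at neither. These probes overlap on chromosome 6 (chr6:147330755-147330814 and chr6:147330723-147330782, minus strand), and the bases they share are shown because the probes are therefore not independent readings.
Shared 28 bases of both Pthlh probes: tgggatcaaactgtctccccaggaaact

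At the brighter Pthlh probe the arrays read 10.96, 11.39 and 11.33 in Schmid and 10.95, 12.11 and 11.53 in Wt_Schmid. They read 12.03, 11.69 and 12.41 in Cog and 12.42, 11.81 and 12.09 in Wt_Cog. Mutant and wildtype overlapped in both comparisons. The differences were -0.3 in Schmid (interval -0.96 to 0.35, adjusted p = 0.47) and -0.06 in Cog (interval -0.72 to 0.59, adjusted p = 0.93). At the dimmer probe they were 0.35 (interval -0.37 to 1.08, adjusted p = 0.45) and -0.51 (interval -1.23 to 0.22, adjusted p = 0.41). The Schmid difference thus had opposite signs at probes that share 28 bases, and the intervals at the brighter probe excluded a 2-fold change in either mutant while those at the dimmer probe did not.

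Smo, the transducer that Ptch1 holds back, was lower in Schmid without reaching the 2-fold limit. Its brightest probe read 14.70, 14.93 and 15.15 in Schmid against 15.77, 15.87 and 15.60 in Wt_Schmid, with no overlap. This was a 1.76-fold lower level (log2 difference -0.82, SE 0.16, interval -1.17 to -0.47, adjusted p = 0.0052 in limma). In Cog it read 15.43, 14.94 and 15.34 against 15.55, 15.72 and 15.64, also without overlap, at -0.4 (interval -0.75 to -0.05, adjusted p = 0.18). The 2 effects were not shown to differ (-0.42, interval -0.91 to 0.08, adjusted p = 0.22).

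The other Smo probes lay near background. The probe that skips 1174 bases was well above background on 3 Wt_Schmid arrays and on 0 Schmid arrays, so that it gives only a bound there, at least 1.46-fold lower in Schmid (adjusted p = 0.0023). In Cog it was at 0.39 (adjusted p = 0.087), with all Cog arrays above all Wt_Cog arrays. The effects differed by -1.1 (adjusted p = 0.0022). This spot lay in row 18, and with trends over rows and GC content removed its Schmid difference was -0.13 and the difference between the mutants -0.42 (adjusted p = 0.091). With the scanner's processed signal, under quantile and 75th percentile scaling, its Schmid difference was -2.33 and -2.66 (adjusted p = 0.00027 and 0.00057). The difference between the mutants was then -3.29 and -3.77 (adjusted p = 0.00057 and 0.0016). That difference stayed called in 22 of 24 alternatives. The last Smo probe was well above background on 0 of 12 arrays.

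Ptch1, the receptor and itself a target of the pathway, gave almost no signal: its probes were well above background on 1 and 0 of 12 arrays. At the brighter one the arrays ran from 9.31 to 9.39 in Schmid, 9.22 to 9.46 in Wt_Schmid, 9.52 to 9.74 in Cog and 9.51 to 9.62 in Wt_Cog. These values say nothing of a change, as a probe without signal cannot show one. Schmid differed from its wildtype by -0.02 (adjusted p = 0.89), and for Cog the value was 0.05 (adjusted p = 0.84).

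Gli1, the transcription factor that hedgehog signalling induces, lay at the edge of detection. It was well above background on 6 of 12 arrays, namely all 3 of Schmid, 1 of Wt_Schmid, 0 of Cog and 2 of Wt_Cog. Its differences were 0.06 in Schmid (interval -0.2 to 0.33, adjusted p = 0.73) and -0.08 in Cog (interval -0.35 to 0.18, adjusted p = 0.73). Gli2, the main activator, was well above background on 5 of 12 arrays at its brighter probe and on 0 at the other. It was at 0.18 in Schmid and -0.24 in Cog (adjusted p = 0.59 in both).

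Gli3, which acts mainly as a repressor, was well above background on all 12 arrays at 1 probe and on 0 at the other. At the first the arrays read 12.60, 11.93 and 12.16 in Schmid against 12.95, 12.03 and 12.42 in Wt_Schmid. Cog read 11.90, 12.33 and 13.62 against 13.69, 12.83 and 12.34 in Wt_Cog. Both comparisons overlapped, and the Cog and the Wt_Cog arrays each spread over more than 1 unit. With 1 array left out the Cog difference ran from -0.84 to 0.03. Differences were -0.24 in Schmid (interval -1.26 to 0.79, adjusted p = 0.73) and -0.34 in Cog (interval -1.37 to 0.69, adjusted p = 0.72).

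Hhip, a decoy receptor that binds hedgehog and is induced by it, read 9.12, 9.63 and 9.40 in Schmid and 10.78, 9.77 and 10.12 in Wt_Schmid. These did not overlap, but the highest mutant array lay close to the lowest wildtype array. In Cog it read 10.50, 11.01 and 9.28 against 11.45, 10.42 and 10.74, which overlapped. Neither difference passed the test, at -0.84 in Schmid (SE 0.43, interval -1.8 to 0.12, adjusted p = 0.18) and -0.6 in Cog (interval -1.57 to 0.36, adjusted p = 0.46). Its probe was well above background on 9 of 12 arrays, and its second probe on 0.

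**Figure D3:**
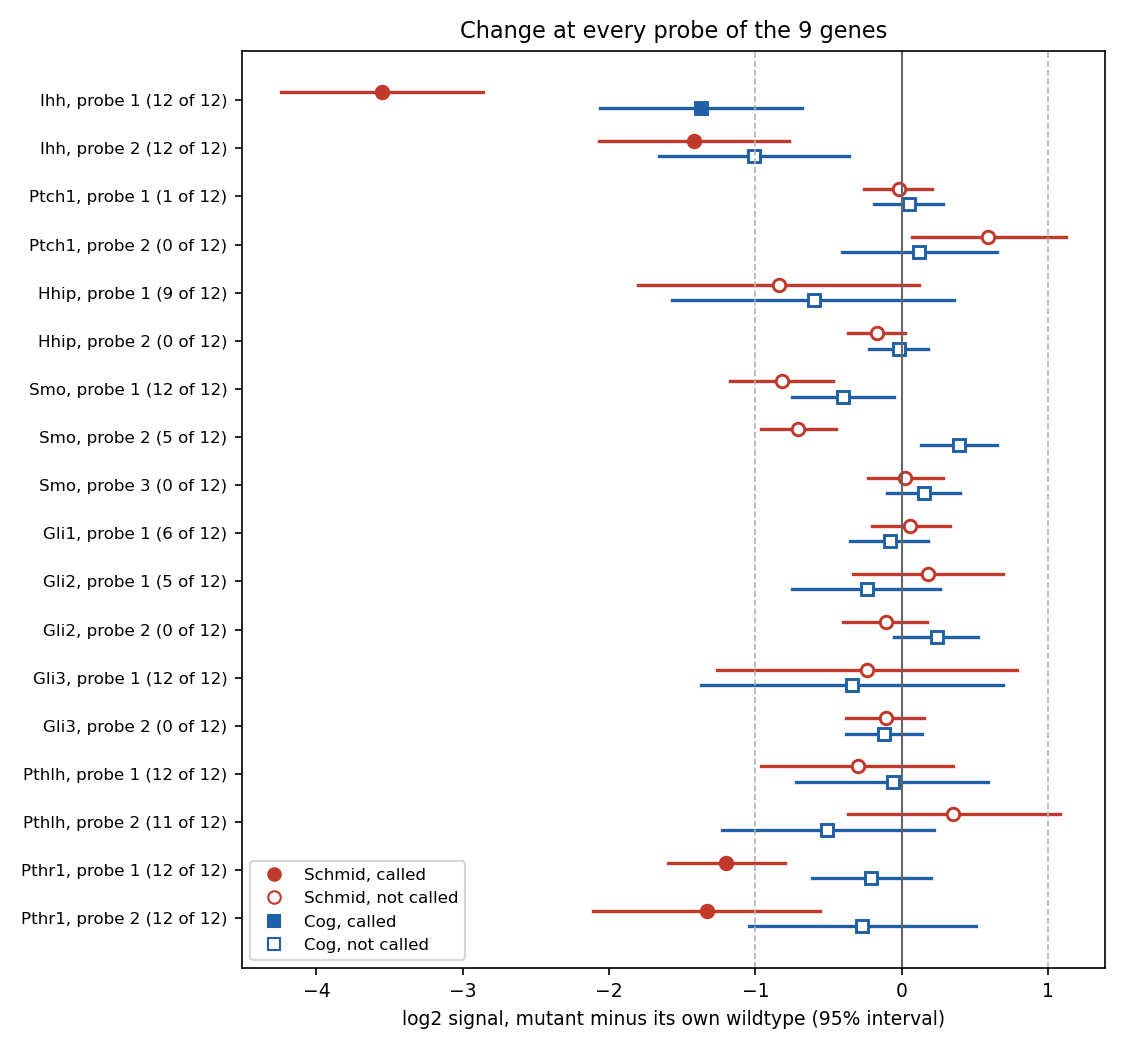
Log2 difference of mutant and own wildtype at each of the 18 probes, Schmid and Cog side by side, with 95% intervals from limma and the number of arrays out of 12 on which the probe was well above background. Filled symbols passed the adjusted p and the 2-fold limit, which were both Ihh probes and both Pthr1 probes in Schmid and the brighter Ihh probe in Cog. The intervals of most other probes cross 0.

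Between the wildtype groups limma called 0 of the 9 genes, and none had an unadjusted p under 0.05 at its brightest probe. Over all probes 0.233% were higher and 0.236% lower in Wt_Schmid than in Wt_Cog. The largest difference among the 18 probes was -0.95 at the dimmer Pthlh probe (interval -1.67 to -0.23, adjusted p = 0.22).

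Some markers of other cell types moved with genotype in Schmid, where limma called 1607 of all 27962 genes lower. Of 8 measured markers of proliferative chondrocytes 3 fell (Fmod, Mki67 and Matn1). Pcna, a replication gene of the same list, went the other way without passing the test (log2 difference 1.4, adjusted p = 0.055). The summed log2 level of the list, to which its brightest genes contribute most, was 16.75 to 16.90 in Schmid against 17.30 to 18.73 in Wt_Schmid. In Cog 0 of 8 were called (limma, 0 at an unadjusted p under 0.05), at 17.34 to 18.16 against 17.46 to 18.39. For a much larger signature of proliferative zone genes the paper reported the other direction, abnormally high expression in Schmid. It counted Matn1 among the secreted cartilage matrix genes that fell. These few markers therefore do not measure the share of proliferative chondrocytes. Of 6 endothelial markers 3 fell in Schmid, at 12.49 to 13.01 against 14.22 to 14.97, and Pecam1 was well above background on 0 of 12 arrays. In Cog 0 of the 6 were called (limma, 4 at an unadjusted p under 0.05), and their summed level of 13.51 to 14.31 lay below the 14.56 to 14.90 of Wt_Cog. Of 9 red cell and marrow markers 3 fell in Schmid, at 14.73 to 16.58 against 17.96 to 20.33. Of 9 perichondrium and osteoblast markers 2 fell in Schmid, at 19.21 to 19.64 against 19.62 to 20.39. In Cog 1 of these rose and 1 fell, and 0 of the 9 red cell and marrow markers were called (limma, 0 at an unadjusted p under 0.05). Of 6 measured osteoclast markers limma called 0 in Schmid and 0 in Cog, with 2 at an unadjusted p under 0.05 in each. Their summed level was 13.33 to 13.67 in Schmid against 13.72 to 14.98 in Wt_Schmid. Wt_Schmid 1, the array high in Mmp13, set the top of the Wt_Schmid range in each of these lists. For the osteoclast markers the other Wt_Schmid arrays read 13.72 and 13.82, close to Schmid. Of 9 hypertrophic markers 1 fell in Schmid, Alpl (limma, 5 at an unadjusted p under 0.05), and Col10a1 differed by -0.02 (adjusted p = 0.99). In Cog 0 of the 9 were called (limma, 2 at an unadjusted p under 0.05). That list includes Col2a1 and Acan, which the paper groups with general cartilage markers. For a much larger signature of hypertrophic zone genes the paper reported abnormally low expression in both mutants. These 9 markers therefore do not measure how far hypertrophy was kept. The part of these cell types in the fall of Ihh and Pthr1 was not tested.

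Other genes of the pathway were taken from lists and read at their brightest probe. Over all 27962 genes at their brightest probe, limma called 1622 higher and 1607 lower in Schmid, and 529 higher and 234 lower in Cog. The counts of the lists below stand beside these. Of 11 genes that release, spread or receive hedgehog ligands, 2 fell in Schmid and 1 in Cog, with 0 higher in either and medians of -0.33 and -0.2. Disp1, which releases the lipid-bearing ligand from the cell that makes it, read 9.95, 10.71 and 10.69 in Schmid against 13.08, 12.84 and 13.24 in Wt_Schmid, with no overlap. The Schmid level was 6.07-fold lower (adjusted p = 0.00022) and the Cog level 2.37-fold lower (adjusted p = 0.026), and the effects differed (-1.36, adjusted p = 0.03). Its second probe was not called in either mutant. Boc, a coreceptor, was 2.36-fold lower in Schmid at 1 of 3 probes (adjusted p = 0.0011), and its difference was -0.98, under the 2-fold limit, once the row trend was removed. Shh, another hedgehog ligand, was well above background on 0 of 12 arrays and Dhh on 4.

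Of 14 genes of the intracellular relay and the primary cilium, in which Smo works, limma called 0 in Schmid, and 6 had an unadjusted p under 0.05, a share like that of all genes (11305 of 27962). In Cog 1 fell, the ciliary transport gene Ift88, 2.24-fold (adjusted p = 0.036), at 9.97, 10.58 and 10.56 against 11.67, 11.61 and 11.32. That call was lost in 16 of 26 alternative analyses. Medians of the list were -0.18 in Schmid and 0.18 in Cog.

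Of 14 genes known as hedgehog targets, 2 rose and 1 fell in Schmid, and 1 fell in Cog, with medians of -0.28 and -0.15. Foxc2, a forkhead factor of skeletal mesenchyme, read 9.63, 10.19 and 10.09 in Schmid against 11.71, 12.02 and 12.26, and 10.20, 10.47 and 10.00 in Cog against 11.24, 11.78 and 11.98. It was 4.07-fold lower in Schmid (adjusted p = 0.00043) and 2.72-fold lower in Cog (adjusted p = 0.011), with no overlap in either. Ccnd2, a cyclin that drives entry into the cell cycle, rose 2.58-fold in Schmid (adjusted p = 0.0058), at all 3 of its probes, and in Cog was called at 2 of them but not the brightest (0.78, adjusted p = 0.13). Foxf2 was not well above background in Wt_Schmid and rose by at least 1.3-fold (adjusted p = 0.01).

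The PTHrP relay list held genes downstream of Pthr1, and also the ligand gene Pth and the related receptor gene Pthr2. Of its 19 measured genes 3 fell in Schmid and 0 rose, with a median of -0.3. Limma called 0 in Cog, where 8 had an unadjusted p under 0.05, as did 6318 of all 27962 genes, and the median was -0.02. Adcy6, an adenylyl cyclase, was 4.63-fold lower in Schmid (adjusted p = 0.021), at 11.12, 12.93 and 12.41 against 13.62, 15.13 and 14.34. Arrb1, a β-arrestin that ends receptor signalling, was 3.25-fold lower (adjusted p = 0.025) and was called at both probes. Gnas, which encodes the stimulatory G protein that couples to the receptor, was 3.71-fold lower at its brightest probe (adjusted p = 0.00065), but this was 1 of 8 probes called, and the others reached 0.5.

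Among 21 measured regulators of hypertrophy and of Ihh, 2 fell and 1 rose in Schmid, with a median of -0.33. Over all 27962 genes 1607 fell and 1622 rose there. Limma called 0 in Cog, where 2 had an unadjusted p under 0.05 and the median was -0.15. Foxa2, a forkhead factor that drives hypertrophy, read 11.83, 12.19 and 12.41 in Schmid against 14.66, 13.69 and 14.43 in Wt_Schmid, and was 4.33-fold lower (adjusted p = 0.00069). Foxa3, its relative, was 3.87-fold lower (adjusted p = 0.028). Msx2, a homeobox factor, rose 2.08-fold (adjusted p = 0.037). Runx2, which activates Ihh, was 1.6-fold lower in Schmid at the brightest of its 4 probes (adjusted p = 0.027), below the 2-fold limit. The paper's own adjusted p for Runx2 in Schmid was over 0.05.

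**Figure D4:**
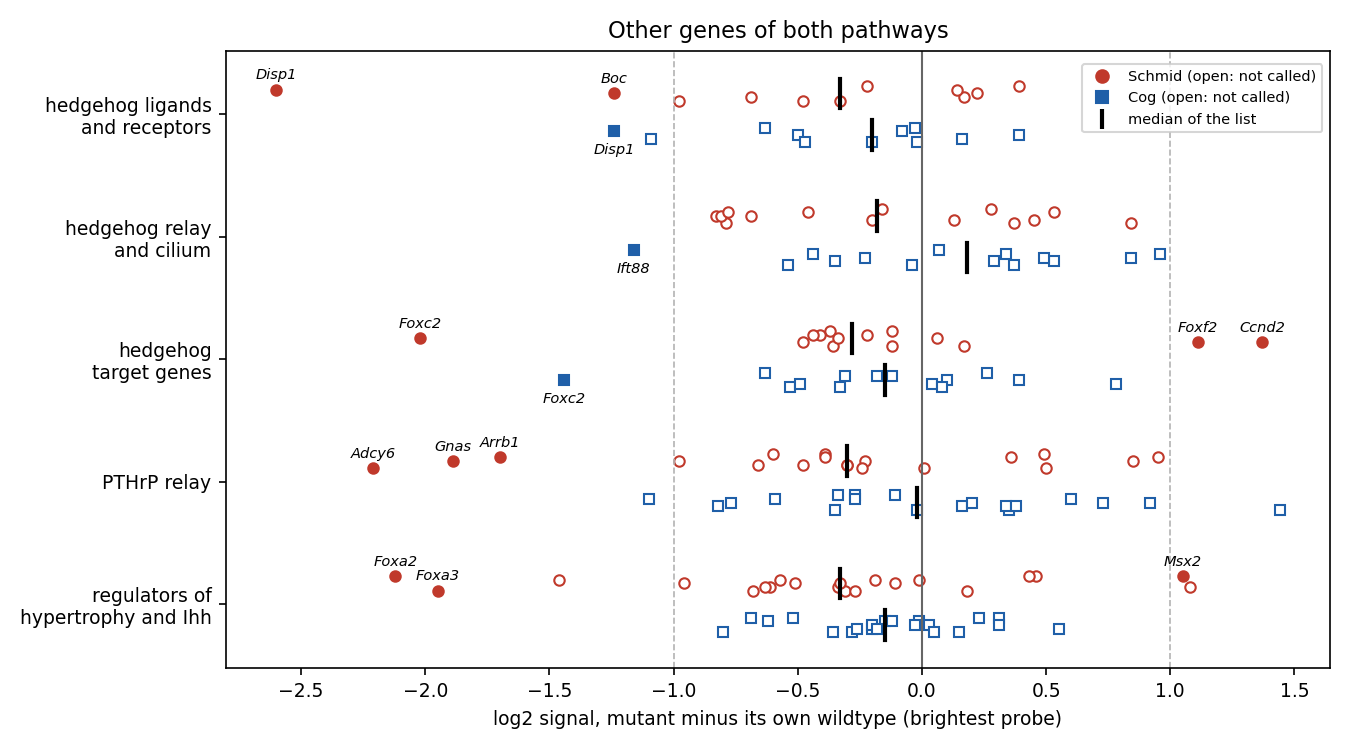
Log2 difference of mutant and own wildtype for each gene of the 5 pathway lists, at the brightest probe, in Schmid (circles) and Cog (squares). Filled points passed the adjusted p and the 2-fold limit and are named, black bars are list medians and dashed lines mark 2-fold. Most points lie within 1 unit of 0, and Disp1 in Schmid, at -2.6, lies lowest.

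The genes whose signal followed Ihh most closely over the 12 arrays were sought among 18947 genes with detectable probes, as a description, since all points share arrays and genotype. They were 2310040A07Rik (r = 0.985), Sdc3 (0.981), Raver2 (0.977), X99384 (0.977) and Fxyd3 (0.974). All were called lower in Schmid and none was called in Cog. Sdc3, a cell surface proteoglycan of cartilage, was 3.34-fold lower in Schmid (adjusted p = 0.00059), and 2310040A07Rik 9.59-fold lower (adjusted p = 0.00065). Among the other 8 genes of the axis the correlation with Ihh was 0.899 for Pthr1, 0.857 for Smo and 0.622 for Hhip, and lay between -0.104 and 0.496 for the rest.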

How the data were processed

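The authors deposited the scanner's spot intensity values (Feature Extraction 9.5.3, per the submitters' processing notes) and a matrix of log2 values, used as an alternative. From the intensity values, spots marked as outliers were left out, foreground and local background were combined by normexp (offset 50), log2 values were quantile normalized without control spots, and the spots of a probe were averaged. Group means of 12 arrays were fitted with limma 3.58.1 (R 4.3.3, data.table version 1.17.8, 8 residual degrees of freedom), with Benjamini-Hochberg adjustment over 41174 probes. All adjusted p-values are from limma. Precision is limited by having 3 arrays a group. Of 200 probes given a simulated log2 change of 1.5 in Schmid, 69.5% were recovered among 41141 probes. No other probe was changed there and the noise was independent, while 4310 probes were called in the real Schmid comparison. That share is therefore not the recovery rate in these data.

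All members were named at every probe, with the pathway genes past the threshold and the 5 genes closest to Ihh. The members and lists were chosen with earlier results of these data known. Runx2, Shh and Dhh were named besides, after their values were seen. Alternatives covered background correction, scaling, dim probes, row and GC trends, slide, scan day, array weights, the replicate number and each array left out.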

Additional observations from a re-analysis of the deposited data

Results flagged for a closer look

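A difference between the effects of the 2 mutations, by the test of that difference in limma, marked 3 probes. Ihh at its brighter probe fell further in Schmid, with a log2 difference of -2.18 between the effects (adjusted p = 0.0093), and its second probe gave -0.41 (adjusted p = 0.53). Smo at the probe that skips 1174 genomic bases gave -1.1 (adjusted p = 0.0022), near background, while its brightest probe gave -0.42 (adjusted p = 0.22). Pthr1 at its brighter probe gave -0.99 (adjusted p = 0.026), and its second probe -1.07 (adjusted p = 0.17). Groups of 3 arrays are too small to test single arrays as outliers.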

How the results depend on the processing

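Ihh in Schmid stayed called in all 26 alternatives, from -3.8 to -2.49 (adjusted p from 1.1e-05 to 0.0035), and from -3.8 to -3.41 with 1 array left out. Ihh in Cog was lost with the scanner's processed signal scaled to the 75th percentile (-1.65, adjusted p = 0.16), normexp scaled to it (-1.58, 0.058), only the groups compared (-1.37, 0.11) and limma's treat, which tests against 2-fold (-1.37, adjusted p = 1), where 0 of 9 genes were called in Cog. With 1 array left out it ran from -1.72 to -1.15, and 0 to 1 gene was called. The difference between mutants for Ihh was lost with the processed signal at the 75th percentile (-1.76, adjusted p = 0.11) and with treat (-2.18, 0.47), where 0 genes differed, and ran from -2.43 to -1.84 with 1 array left out. With normexp at the 75th percentile and with scan day as a term (an alternative chosen after seeing the data) 1 gene differed, Ihh, and with 1 array left out 1 to 2. In Schmid treat called 1 gene, Ihh, and 2 were called with any 1 array left out. No result reversed. The causes were not tested.

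Scaling moved the median of all probes in Schmid to -0.4 (processed, 75th percentile) or -0.35 (normexp, 75th percentile), and in Cog to 0.43 (processed). The share of Schmid calls that were higher was 55.2% in the main analysis and 42.5% and 42.6% in these 2 alternatives. With the processed signal under quantile scaling it was already 42%, at a median of -0.04, so scaling alone did not set that share. At the 75th percentile Smo in Schmid passed 2-fold with the processed signal (-1.13, adjusted p = 0.037). So did Hhip with normexp (-1.28, adjusted p = 0.024). Called pathway genes that were lost in several alternatives were Disp1 in Cog (9 of 26), Msx2 (9), Foxa3 (9), Adcy6 (5), Foxf2 (5), Boc (4) and Arrb1 (4), and Gnas (2) fell to -0.21 as a mean over its probes.

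Replicate numbers were shared between groups, and arrays of 1 number deviated together in part. Over all probes the correlations were 0.193, 0.171 and 0.066 for Schmid, -0.116, 0.072 and -0.106 for Cog and 0.406, 0.047 and 0.19 between the wildtypes. Over 12814 bright probes they were 0.307, 0.283 and 0.117, then -0.208, 0.151 and -0.2, then 0.504, 0.116 and 0.274. The numbers were not taken as pairs, since not every pair was over 0.1 with all probes, and 4 of 12 arrays were closest to one of their own number in another group. With the replicate number as a block, Ihh was at -3.55 in Schmid (adjusted p = 0.0005) and -1.37 in Cog (0.045), 4378 probes were called in Schmid (4310 without it) and 887 in Cog (952 without it), and Ift88 in Cog (0.057) and Msx2 in Schmid (0.058) were lost. A slide term could not be fitted as a fixed block. Dim probes limit Ptch1, Gli1 and Gli2, and the filter on dim probes left Ptch1 without a value.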

Other observations

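In the PTHrP relay list, effects differed between the mutants for 6 of 19 measured genes, which were picked out after their values were seen. That list also holds Pth and Pthr2, which do not lie downstream of Pthr1. The same test was passed by 4953 of all 27962 genes. Gnas was 3.71-fold lower in Schmid and at 0.92 on the log2 scale in Cog (adjusted p = 0.059), a difference of -2.81 (adjusted p = 0.00097) at 1 of its 8 probes. Adcy6 was 4.63-fold lower in Schmid and at 1.44 in Cog (adjusted p = 0.18), a difference of -3.65 (adjusted p = 0.014). The phosphodiesterase gene Pde4d gave -1.18 (adjusted p = 0.016) at the brightest of its 4 probes, well above background on 7 of 12 arrays. The related receptor gene Pthr2, well above background on 3 of 12 arrays, gave -0.63 (adjusted p = 0.044). The protein kinase A subunit gene Prkacb gave 1.54 (adjusted p = 0.028) and the phosphatase subunit gene Ppp2ca 0.85 (adjusted p = 0.047). Each was read at the brighter of 2 probes, and that of Prkacb was well above background on 8 of 12 arrays. Bmp4, a growth factor that acts beside Ihh, was at -0.61 in Schmid and 0.55 in Cog (adjusted p = 0.024 and 0.091), a difference of -1.16 (adjusted p = 0.0092).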
